A study of Mus musculus with 31 samples.

Results

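Butyrate and acetate were compared as rectal infusions in mice fed a high-fat diet (HFD), by the messenger RNA of colon scrapings. The arrays were chosen by their titles, which gave 4 arrays of colon after butyrate and 4 after acetate, 8 of the 31 arrays in the study. All mice were male C57Bl/6J, 13 weeks old at sampling, and carried no transgene or other genetic change named in the labels. The HFD supplied 45% of energy as fat, with palm oil in place of lard, and the low-fat diet (LFD) of the other groups supplied 10%. On 6 days in a row each mouse was sedated and received 80 µL by rectum, either saline or saline with 100 mM of the sodium salt of one acid, and colons were taken 4 h after the last dose. Sedation, gas mixture and the infusion itself were shared by all groups, so the acid was what the labels say differed. The protocol gave 6 mice to each infusion and diet, and the labels do not say which 4 of them each group of arrays holds or that each array is a separate mouse. The p-values therefore measure the spread between these arrays.

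Acetate and butyrate are short-chain fatty acids, made in the colon when bacteria ferment fibre. They differ in the length of the carbon chain, which is longer in butyrate. Butyrate is a main fuel of colonocytes, which oxidise it in mitochondria, and it inhibits histone deacetylases, enzymes that remove acetyl groups from histones. Acetate is turned into acetyl-CoA by synthetases and largely passes into the blood. Both enter cells through monocarboxylate transporters and both bind the receptors encoded by Ffar2 and Ffar3.

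Values are log2 intensities, so a difference of 1 is a change of 2-fold, and a difference is always butyrate minus acetate on the HFD unless another pair is named. The 8 arrays had medians of 5.15 to 5.18. Correlations across probe sets were 0.991 to 0.994 within the groups and 0.990 to 0.994 between them. Markers of colonic epithelium were high in all 8: the mean of 11 absorptive colonocyte genes was 11.62 to 11.86, and that of 11 goblet cell genes 10.74 to 11.12. In scrapings, fewer cells of a type and less RNA per cell cannot be told apart. In the saline group on the HFD, which both acids are set against below, the mean of 18 small-intestinal genes reached 8.18 in 1 array, against 6.39 to 6.65 in the 8 arrays compared, and the mean of 11 smooth muscle genes reached 6.65 against 5.23 to 5.71.

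No gene of the 12795 tested was called different between butyrate and acetate on the HFD (0% called), with a smallest adjusted p of 0.996 from limma with Benjamini-Hochberg adjustment. At an unadjusted p under 0.05 there were 466 genes (3.64%), of which 307 (2.4%) were higher after butyrate and 159 (1.24%) lower. That was fewer than the 639.8 expected at that p if no gene differed. A fit to only the groups compared gave 663. Without butyrate array 1 the 466 became 210, without butyrate array 2 they became 310, and without both, an alternative chosen after seeing the data, 120. All 4 butyrate arrays lay above all 4 acetate arrays for 279 genes (2.18%) and below them for 114 (0.891%). Differences lay above 0 for 7314 genes (57.2%), with a median of 0.02 over all genes.

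The precision of these arrays sets bounds on the differences that could have gone uncalled. The 95% interval of the difference lay within 0.5 on either side of 0 for 11500 genes (89.9%) and within 1, that is 2-fold, for 12661 (99.0%). The estimate itself exceeded 0.5 in size for 49 genes and 1 for 1 gene. That gene, chosen after its values were seen, was Cyp2e1, a cytochrome P450 abundant in liver and fat. Its values were 4.37, 3.85, 4.60 and 5.99 after butyrate and 7.50, 5.62, 5.43 and 4.47 after acetate. The groups overlapped, with the highest value in acetate array 1, and the difference was -1.05 with a standard error (SE) of 0.63. The largest estimate above 0 was that of Hsph1, a heat shock chaperone, at 0.87 (SE 0.47).

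**Figure D1:**
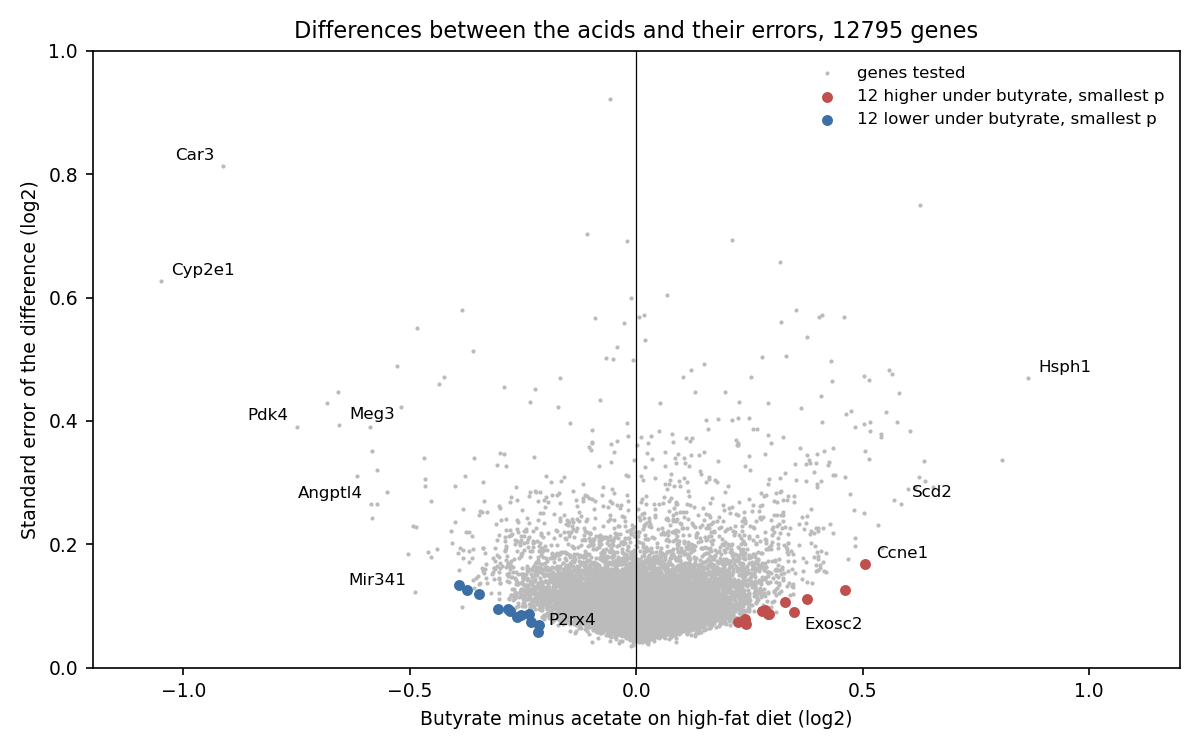
Difference between butyrate and acetate on the HFD (log2, horizontal) against its standard error (log2, vertical) for each of the 12795 genes, with the 12 genes of smallest p in each direction in colour. Estimates beyond 0.5 in size belonged mostly to genes with large errors, such as Cyp2e1 (-1.05, SE 0.63) and Hsph1 (0.87, SE 0.47), while the coloured genes had small errors and differences of 0.22 to 0.51 in size.

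No gene that carries or senses the acids was called. Of the list of transporters and receptors, 9 of the 14 genes were tested, 3 had estimates above 0, and the median was -0.01. Slc16a1, the main monocarboxylate transporter of the colon, read 10.26, 10.16, 10.38 and 10.40 after butyrate and 10.54, 10.01, 10.41 and 10.29 after acetate. Slc5a8, which carries the acids into cells together with sodium, read 11.14, 11.08, 11.12 and 11.19 against 11.20, 10.95, 11.16 and 11.24. For both, the groups overlapped, and the differences were -0.01 (95% interval -0.26 to 0.24) and 0.00 (-0.17 to 0.16).

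Bsg, which encodes the partner protein that brings these transporters to the membrane, had the narrowest interval of the list (0.01, -0.12 to 0.13). Slc26a3, a chloride and bicarbonate exchanger of the colon surface, differed by 0.01 (-0.31 to 0.33). Slc16a3, a lactate exporter, differed by 0.07 (-0.32 to 0.45). Slc16a7, another monocarboxylate transporter, was the member whose groups did not overlap, beside 0.891% of all genes with every butyrate array below. It read 5.74 to 6.01 after butyrate and 6.04 to 6.23 after acetate. Its difference was -0.22 (-0.52 to 0.07), and Abcg2, an efflux pump, gave -0.20 (-0.46 to 0.05). The receptor genes Ffar2 and Ffar3 differed by -0.16 (-0.47 to 0.16) and -0.06 (-0.26 to 0.13). Every interval on this list but that of Slc16a7 lay within 0.5 of 0, beside 89.9% of intervals over all genes.

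None of the tested enzymes that activate or break down the acids was called either. Of the 19 genes listed, 12 were tested, 5 had estimates above 0 and the median was -0.00. The 95% intervals of all 12 lay within 0.5 of 0, beside 89.9% of intervals over all genes. Acss1 and Acss2 encode the mitochondrial and the cytosolic acetyl-CoA synthetase, which use acetate. No other synthetase was among the 12, so these values do not cover the activation of butyrate. Acss1 read 8.64, 8.82, 8.99 and 9.20 after butyrate and 8.98, 8.93, 9.27 and 9.25 after acetate, with overlap, and differed by -0.19 (-0.44 to 0.05). Acss2 differed by 0.08 (-0.14 to 0.29). Acads encodes the dehydrogenase that takes the first step of butyrate oxidation. It read 9.94, 10.06, 10.21 and 10.30 against 10.00, 10.23, 10.24 and 10.26, a difference of -0.06 (-0.28 to 0.17).

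Estimates for later enzymes of that route were also small. Hadh differed by -0.00 (-0.15 to 0.14), Echs1 by 0.02 (-0.19 to 0.23), Acat1 by 0.01 (-0.17 to 0.18) and Acaa2 by -0.15 (-0.43 to 0.14). Pcca, Pccb, Mcee and Mmut, which take propionyl-CoA to succinyl-CoA, differed by -0.04 to 0.04. Hibch, of valine breakdown, differed by -0.06. Among genes of ketone bodies, 3 of 6 were tested and all 3 had estimates above 0. They were Bdh1, which interconverts the ketone bodies (0.09, -0.09 to 0.28), Oxct1, which activates acetoacetate in mitochondria (0.17, -0.03 to 0.37), and Aacs, which does so in the cytosol (0.27, -0.06 to 0.60). Aacs read 8.16, 8.02, 7.65 and 7.64 after butyrate and 7.41, 7.79, 7.72 and 7.45 after acetate. Its 2 highest values were those of butyrate arrays 1 and 2, and its difference without these was 0.05.

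Deacetylases and the genes that respond to their inhibition had estimates on both sides of 0. Of 16 deacetylases and sirtuins tested, 7 had estimates above 0, with a median of -0.02. Without butyrate arrays 1 and 2, 10 of the 16 were above 0 and the median was 0.03. Hdac3, a class I enzyme needed for metabolic gene control in the gut, read 9.53, 9.55, 9.50 and 9.63 after butyrate and 9.53, 9.61, 9.66 and 9.57 after acetate. The groups overlapped in part, and the difference was -0.04 (-0.15 to 0.08). The other class I enzymes, Hdac1, Hdac2 and Hdac8, differed by 0.00, 0.13 and -0.19. Hdac6, a cytosolic deacetylase of tubulin, had the smallest p of the list (-0.17, SE 0.08, unadjusted p = 0.0408), and its groups overlapped. Of 22 genes often raised by deacetylase inhibitors, 14 had estimates above 0 and the median was 0.03, or -0.02 without butyrate array 1. The only member with an unadjusted p under 0.05 was Angptl4, at -0.59, which is also counted among the PPAR targets below. Cdkn1a, the cell cycle inhibitor p21 that is the standard example, read 11.13, 11.02, 10.97 and 11.00 against 11.09, 11.03, 11.27 and 11.15. It was lower by estimate, at -0.10 (-0.36 to 0.16). Of 12 histone acetyltransferases and acetyl-lysine readers, 8 had estimates above 0 (median 0.05, or 0.02 without acetate array 2 and 0.09 without acetate array 4), led by Kat2a at 0.21 (SE 0.12).

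**Figure D2:**
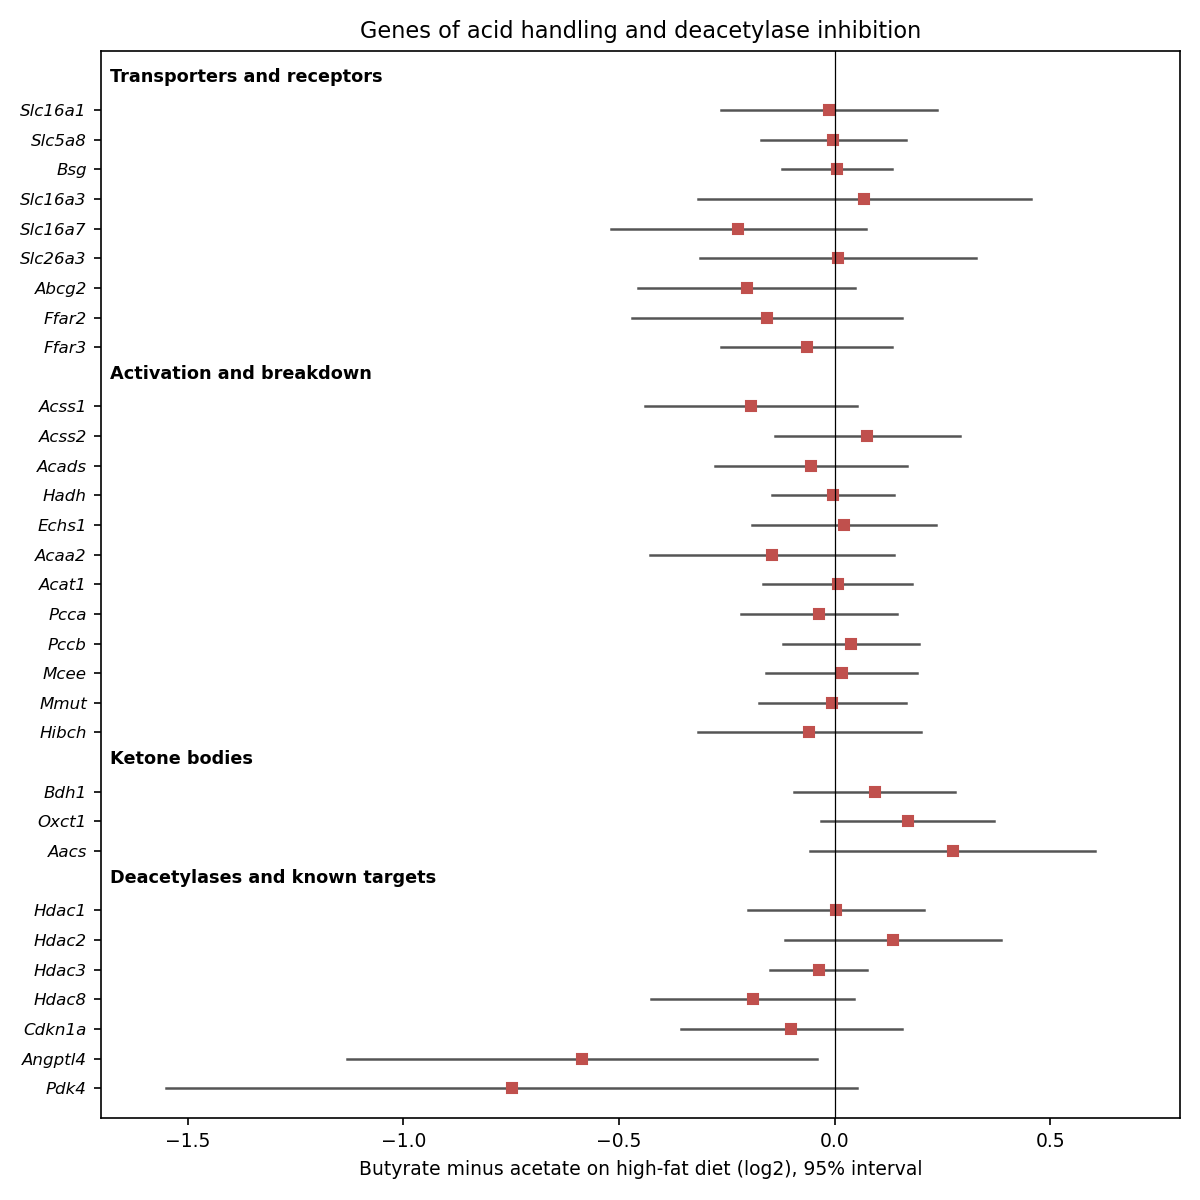
Difference between butyrate and acetate on the HFD (log2, squares) with its 95% interval (lines) for genes that transport, sense and use the acids, for class I deacetylases and for 3 known target genes. All intervals but that of Angptl4 include 0, and Angptl4 and Pdk4 have the widest intervals (-1.13 to -0.04 and -1.55 to 0.05).

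Pdk4 and Angptl4, which respond to fatty acids through the PPAR receptors, had the largest estimates among these targets. Pdk4, a kinase that shuts off pyruvate oxidation, read 6.69, 8.03, 8.07 and 7.91 after butyrate and 8.92, 7.78, 8.68 and 8.31 after acetate. The groups overlapped through acetate array 2, and the difference was -0.75 (SE 0.39, unadjusted p = 0.0656). Angptl4, a secreted inhibitor of lipoprotein lipase, read 5.28, 6.05, 5.99 and 6.24 against 6.82, 6.26, 6.56 and 6.27. The groups did not overlap, although butyrate array 4 and acetate arrays 2 and 4 lay close together, and the difference was -0.59 (SE 0.27, unadjusted p = 0.036). Against the saline arrays on the HFD, which both acids share, Angptl4 lay 0.26 higher after butyrate and 0.85 higher after acetate. For Pdk4 these values were 0.22 and 0.97.

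Other PPAR targets also had estimates mostly below 0. Of 19 members tested, 2 had estimates above 0 and the median was -0.16, beside 57.2% above 0 and a median of 0.02 over all genes. Only Angptl4 had an unadjusted p under 0.05, and none was called. Acot1, a cytosolic thioesterase, differed by -0.37 (SE 0.19). Hadha, a subunit of the trifunctional protein of fatty acid oxidation, differed by -0.12 (SE 0.06). The mean of the list was 7.67, 7.98, 8.06 and 8.11 in the butyrate arrays and 8.34, 7.97, 8.31 and 8.09 in the acetate arrays, so the groups overlapped. Without butyrate array 1, the lowest, 3 members had estimates above 0 and the median was -0.09.

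Genes of fatty acid oxidation had estimates mostly below 0, of smaller size. These lists share members with the PPAR targets, so they are not independent of that list. Shared were Cpt1a, Acadl, Acadm, Acaa2, Slc25a20 and Hadha in mitochondria, and Ehhadh and Acaa1b in peroxisomes. In mitochondria 2 of 19 genes had estimates above 0 (median -0.09), led by Hadhb, the other subunit of the trifunctional protein, at -0.22 (SE 0.12). Acsl5, a long-chain acyl-CoA synthetase, was on the other side at 0.13 (SE 0.08), and Cpt2, which hands acyl groups to the matrix, was at -0.12 (SE 0.07). In peroxisomes 3 of 15 genes had estimates above 0 (median -0.10). Acox2, an oxidase of branched chains and bile acid precursors, differed by -0.30 (SE 0.14), Phyh, which starts the oxidation of phytanic acid, by -0.18 and Pex11a, a factor of peroxisome division, by -0.23. The groups overlapped for all but Pex11a, at 8.22 to 8.48 after butyrate and 8.53 to 8.65 after acetate. Over all genes 0.891% lay apart in that direction. Without butyrate array 1, 8 of the 19 mitochondrial genes had estimates above 0 with a median of -0.05, and 6 of the 15 peroxisomal genes with a median of -0.02.

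Fat cell transcripts were uneven across the same arrays. All 9 adipocyte markers tested had estimates below 0, with a median of -0.30, and none had an unadjusted p under 0.05. Their mean was 5.43, 5.31, 5.26 and 6.15 after butyrate and 6.54, 6.08, 5.67 and 5.47 after acetate. Adipoq, the adipocyte hormone adiponectin and a defining marker, read 3.29, 3.51, 3.26 and 4.41 against 4.98, 4.57, 3.70 and 3.57, with 5 of the 8 arrays below 4.32, the level used to filter genes. Car3, a carbonic anhydrase of fat cells, ran from 4.99 to 8.02 and from 5.51 to 8.87. Acetate array 1 was the highest of the 8 for Adipoq, Car3, Cyp2e1, Pdk4, Angptl4 and Acot1. The part of fat cell RNA in the PPAR target values was not tested. Without acetate array 1, 3 PPAR targets had estimates above 0 and their median was -0.12, while 1 of the 9 adipocyte markers did and their median was -0.18.

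Genes of fat and sterol synthesis had estimates mostly above 0. Of 17 genes of fatty acid synthesis and desaturation, 13 had estimates above 0 (median 0.09, or 0.03 without butyrate array 2). Scd2, a stearoyl-CoA desaturase, read 11.78, 11.76, 10.98 and 10.92 after butyrate and 10.92, 10.81, 10.77 and 10.60 after acetate. The values met at 10.92, with the butyrate arrays at or above every acetate array, and the difference was 0.58 (SE 0.27, unadjusted p = 0.0364), or 0.17 without butyrate arrays 1 and 2. Acly, which makes cytosolic acetyl-CoA, differed by 0.23 (SE 0.11), and Srebf1, the transcription factor of fat synthesis, by 0.28 (SE 0.15). Acacb, the acetyl-CoA carboxylase whose product restrains mitochondrial fat oxidation, was at -0.37 (SE 0.17) with groups that did not overlap, 6.27 to 6.85 against 6.87 to 7.21. Of 20 genes of cholesterol synthesis and uptake, 18 had estimates above 0 (median 0.11), with Sqle at 0.26, Idi1 at 0.27 and Mvd at 0.22, each with an SE of 0.25 to 0.28. The median was 0.03 without acetate array 4. Without butyrate arrays 1 and 2, only 4 of the 20 had estimates above 0 and the median was -0.07.

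The 12 genes with the smallest p among those higher after butyrate differed by 0.22 to 0.51, with unadjusted p of 0.000647 to 0.00556 and adjusted p of 0.996. For 10 of the 12 every butyrate array lay above every acetate array, beside 2.18% of all genes. The choice by small p in these same arrays favours such a separation. Exosc2, a subunit of the exosome that degrades and trims RNA, headed them. It read 6.84, 6.89, 6.69 and 6.79 after butyrate and 6.38, 6.60, 6.44 and 6.41 after acetate, with no overlap, and differed by 0.35 (SE 0.09). Elac2, which trims the 3′ ends of transfer RNA precursors, read 7.76, 7.77, 7.58 and 7.59 against 7.47, 7.46, 7.48 and 7.33. It differed by 0.24 (SE 0.07), and again the groups did not overlap.

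Ccne1, the cyclin E1 that drives entry into DNA synthesis, had the largest estimate of the 12. It read 6.69, 6.95, 6.18 and 6.32 after butyrate and 5.90, 6.09, 6.25 and 5.87 after acetate. Acetate array 3 lay above butyrate array 3, and the difference was 0.51 (SE 0.17), or 0.22 without butyrate arrays 1 and 2. Pdpn, the membrane mucin podoplanin of lymphatic vessels and stroma, read 5.35, 5.16, 5.32 and 5.05 against 4.96, 4.83, 4.89 and 4.70, without overlap, and differed by 0.38 (SE 0.11). H2-M3, a class I molecule that presents formylated bacterial peptides, read 6.13, 6.09, 6.08 and 6.30 against 5.92, 5.92, 5.94 and 5.87. It differed by 0.24 (SE 0.08), without overlap.

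Rabggta, a subunit of the enzyme that attaches lipid to Rab proteins, differed by 0.22 (SE 0.07) with groups at 6.92 to 7.06 and 6.69 to 6.85. Unc13b, which primes vesicles for release, differed by 0.28 with 1 overlapping acetate array. Snx18, a sorting nexin, differed by 0.28 without overlap. Xxylt1, which adds xylose to the Notch receptor's sugars, differed by 0.29 without overlap, and its 2 highest values, 6.34 and 6.30, were in butyrate arrays 1 and 2. Gimap9, a GTPase of lymphocytes (0.46), Cnih2, which escorts glutamate receptors (0.29), and Tmem89 (0.33) had no overlap either. Their levels, 3.77 to 4.69 over the 8 arrays, lay around 4.32, the level used to filter genes.

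The 12 genes with the smallest p among those lower after butyrate differed by -0.22 to -0.39, with unadjusted p of 0.000923 to 0.0113. The groups did not overlap for 6 of them, beside 0.891% of all genes in that direction, and the choice by small p again favours this. P2rx4, a cation channel opened by extracellular ATP, was abundant and tight. It read 10.26, 10.16, 10.28 and 10.31 after butyrate and 10.40, 10.44, 10.61 and 10.43 after acetate, with no overlap, and differed by -0.22 (SE 0.06). Ube2b, a ubiquitin-conjugating enzyme of DNA damage tolerance, read 8.86, 8.91, 9.04 and 9.01 against 9.27, 9.15, 9.29 and 9.34. It differed by -0.30 (SE 0.10), also with no overlap.

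Hepacam2, an adhesion protein of intestinal secretory cells, read 9.62, 9.50, 9.68 and 9.70 against 9.91, 9.84, 9.86 and 9.81 and differed by -0.23 (SE 0.07). The groups lay apart, while the goblet cell list around it had 3 of 11 estimates above 0 and a median of -0.04. Rxfp4, the receptor of the colonic hormone Insl5, read 4.52, 4.39, 4.83 and 5.11 against 5.18, 5.11, 5.24 and 4.89, with overlap, and differed by -0.39 (SE 0.13). Tsc1, which restrains the growth kinase mTORC1, differed by -0.26 (SE 0.08) with 1 overlapping acetate array.

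Ccs, the copper chaperone of superoxide dismutase (-0.26), and Anks6, a protein of primary cilia (-0.37), lay apart between the groups. Ano10, of the anoctamin family (-0.22), Plekhg1 (-0.28, and -0.26 at its other probe set) and Fhl3, a LIM domain protein (-0.35), overlapped. Csf3, the granulocyte growth factor G-CSF (-0.28), lay apart between the groups and Bmx, a tyrosine kinase (-0.24), did not. Both ran from 3.89 to 4.51, around the same level.

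**Figure D3:**
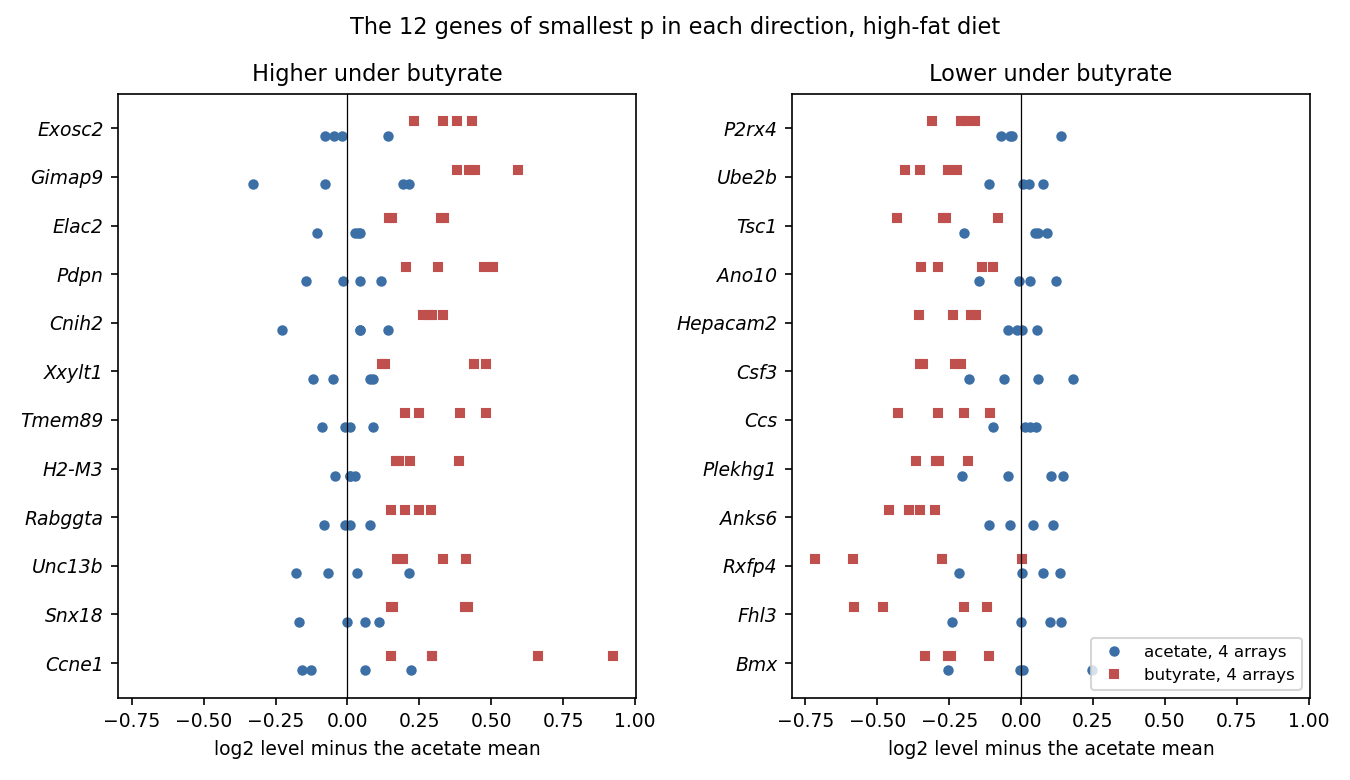
Log2 level in each of the 8 arrays, minus the gene's acetate mean, for the 12 genes of smallest p higher after butyrate (left) and the 12 lower (right), with 4 acetate arrays as circles and 4 butyrate arrays as squares. The groups do not overlap for 10 genes on the left and 6 on the right, a separation that the choice by small p favours. Most butyrate arrays lie within 0.5 of the acetate mean.

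Both acids were also set against saline on the HFD, with the same 4 saline arrays under each. For 8 of the 12 higher genes and 11 of the 12 lower genes the acids lay on opposite sides of the saline mean. These genes were chosen for their difference between the acids, and that choice by itself favours a saline mean between them. Exosc2 lay 0.18 above saline after butyrate and 0.17 below it after acetate. Pdpn lay 0.45 above after butyrate and 0.07 above after acetate, while Cnih2 lay below saline after both, by -0.18 and -0.47. P2rx4 lay at -0.21 after butyrate and 0.01 after acetate, and Ube2b at -0.19 and 0.12.

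The same pair of acids was given at the same dose on the LFD, in 4 butyrate and 3 acetate arrays. No gene of 12795 was called there (0%), with a smallest adjusted p of 1.00 from limma and 179 genes at an unadjusted p under 0.05. With each LFD array left out in turn that count was 139 to 435, with 435 and 298 without acetate array 3 or 2 and 310 without butyrate array 2. The interval lay within 0.5 of 0 for 11440 genes (89.4%), and no estimate reached 1. The test of the difference between the diets, an interaction term in the same fit, called no gene either (0%, smallest adjusted p 0.999, 359 genes at an unadjusted p under 0.05, or 239 without HFD butyrate array 1). Its interval lay within 1 of 0 for 12390 genes (96.8%).

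The 24 genes described above had small differences on the LFD. Of the 12 higher on the HFD, 9 had estimates below 0 on the LFD, over a range of -0.18 to 0.09. Of the 12 lower on the HFD, 8 had estimates above 0, over a range of -0.08 to 0.17. Exosc2 differed by -0.10 (SE 0.10) on the LFD, where its values were 6.46 to 6.65 after butyrate and 6.53 to 6.73 after acetate. P2rx4 differed by 0.10 (SE 0.06), at 10.26 to 10.39 and 10.15 to 10.34. The interaction had an unadjusted p under 0.05 for 9 of the higher genes and 8 of the lower ones, down to 0.0024 for Exosc2 and 0.001 for P2rx4. These genes were chosen for a small p on the HFD, which enters that interaction, and none passed after adjustment.

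**Figure D4:**
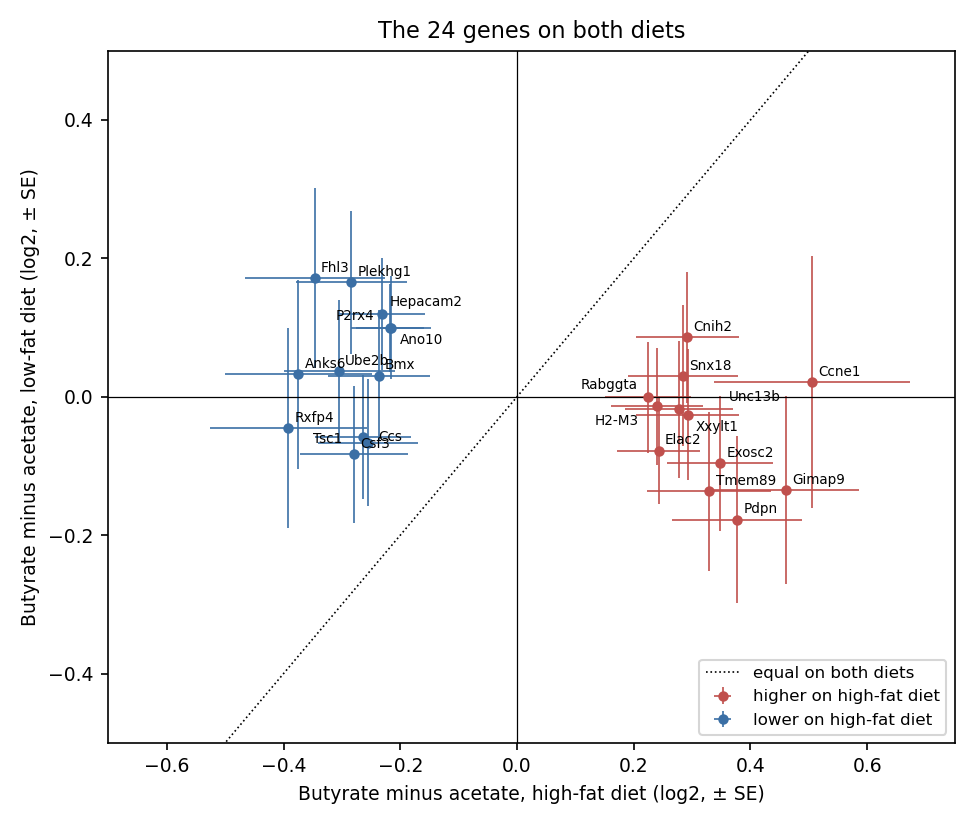
Difference between butyrate and acetate on the HFD (horizontal) and on the LFD (vertical), in log2 with standard errors as bars, for the 12 genes of smallest p in each direction on the HFD. LFD differences range from -0.18 to 0.17 and lie on the other side of 0 from the HFD difference for 9 of the 12 higher and 8 of the 12 lower genes.

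Heat shock chaperones, which refold and protect proteins, were higher by estimate after butyrate. All 14 tested had estimates above 0, with a median of 0.25, none was called and none had an unadjusted p under 0.05. Their mean was 9.17, 9.15, 8.69 and 8.70 in the butyrate arrays and 8.65, 8.56, 8.64 and 8.71 in the acetate arrays. Butyrate arrays 1 and 2 were the highest of the 8, and arrays 3 and 4 lay within the acetate range. Hsph1, which helps Hsp70 exchange its nucleotide, read 8.88, 8.77, 7.73 and 7.60 after butyrate and 7.40, 7.24, 7.06 and 7.80 after acetate. Its difference of 0.87 (SE 0.47) became 0.29 without butyrate arrays 1 and 2. Hspa4l, of the same family, differed by 0.38 (SE 0.22), Ahsa1, which stimulates Hsp90, by 0.29 (SE 0.16) and the mitochondrial Hsp70 gene Hspa9 by 0.15 (SE 0.08). Hspa9 was at 9.57 to 9.80 after butyrate and 9.48 to 9.56 after acetate, without overlap. The median was 0.14 without butyrate array 1. Without arrays 1 and 2, 10 of the 14 had estimates above 0 and the median was 0.05. On the LFD the median was 0.12, with 10 of 14 above 0, and Hsph1 ranged from 7.13 to 9.91 over the 4 butyrate arrays alone.

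Heat shock genes are switched on by a factor that binds repeats of GAA and TTC. The promoter of Hsph1, the gene with the largest estimate above 0, is printed to show such a repeat, from RefSeq in GRCm38.p6 at chr5:149636287-149636586 on the minus strand. It runs from 250 bases before the start of the transcript to 50 after, and capitals mark the match to TTCNNGAANNTTC, which begins 37 bases into the transcript. Hsph1 has another listed start, with its window at chr5:149636266-149636565, from which the same match begins 16 bases in.
Hsph1: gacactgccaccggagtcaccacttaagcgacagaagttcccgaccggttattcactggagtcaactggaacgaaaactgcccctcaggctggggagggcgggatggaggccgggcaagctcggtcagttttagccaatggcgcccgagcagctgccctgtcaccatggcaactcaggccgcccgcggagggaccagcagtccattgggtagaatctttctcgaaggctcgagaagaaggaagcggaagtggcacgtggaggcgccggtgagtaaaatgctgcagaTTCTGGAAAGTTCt
That motif, read with its reverse complement GAANNTTCNNGAA, was found in such windows of 3 of the 11 heat shock genes with a promoter in the table (27.3%), in 0.572% of 10147 tested genes and in 0.662% of all 27025 genes. The others were Hspd1 and Hspe1, named for the match after it was seen, whose starts lie head to head and share their promoter. A match is a description of the letters and not of binding.

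DNA replication genes were also higher by estimate after butyrate. All 19 tested had estimates above 0, with a median of 0.27, and 4 had an unadjusted p under 0.05, beside 2.4% of all genes in that direction. They were Ccne1, described above, Mcm2, a subunit of the replicative helicase (0.41, SE 0.17), E2f1, a transcription factor of S phase (0.40, SE 0.19), and Chaf1a, which loads histones on new DNA (0.28, SE 0.13). For 2 of the 19 the butyrate arrays all lay above the acetate arrays, beside 2.18% of all genes. Mcm2 read 8.02, 8.19, 7.70 and 7.52 after butyrate and 7.38, 7.70, 7.49 and 7.22 after acetate, with overlap. The list mean was 6.91, 7.25, 6.75 and 6.72 against 6.65, 6.70, 6.76 and 6.49, highest in butyrate array 2. Without butyrate array 2 the median was 0.15, and without arrays 1 and 2 it was 0.09 with 15 of 19 above 0. On the LFD 12 of the 19 were above 0, with a median of 0.03.

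Replication genes are known targets of E2F factors, whose sites were searched as TTTCCCGC, TTTGGCGC, TTTGCCGC and TTTCGCGC on both strands. Of 17 replication genes with a promoter in the table, 6 held a site (35.3%), beside 4.51% of tested genes. They were Cdc6, Cdt1, Mcm3, Mcm5, Mcm6 and Mcm7. Ccne1, Mcm2, E2f1 and Chaf1a, the replication genes with an unadjusted p under 0.05, were not among them. The promoter of Mcm6, another helicase subunit, was chosen after the matches were seen because it held 3, some of which overlap. It lies at chr1:128359656-128359955 on the minus strand of GRCm38.p6, with matches in capitals.
Mcm6: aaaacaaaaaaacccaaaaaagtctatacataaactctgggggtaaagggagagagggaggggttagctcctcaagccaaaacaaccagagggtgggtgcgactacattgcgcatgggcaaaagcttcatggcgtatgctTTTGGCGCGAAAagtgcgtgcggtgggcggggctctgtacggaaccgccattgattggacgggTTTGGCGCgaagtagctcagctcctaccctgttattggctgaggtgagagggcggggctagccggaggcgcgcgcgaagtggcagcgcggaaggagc
As above, the letters show no binding.

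Mitosis genes had smaller estimates on the HFD than on the LFD, a difference that was not tested for the list. Of 19 tested, 14 had estimates above 0 on the HFD with a median of 0.08, or -0.02 without acetate array 4, while on the LFD all 19 did, with a median of 0.29. The list means on the LFD overlapped, at 6.64 to 7.22 in 4 butyrate arrays and 6.41 to 6.87 in 3 acetate arrays. Kif23, a motor of cell division, differed by 0.24 (SE 0.14) on the HFD. Mki67, the proliferation marker Ki-67, read 8.29, 8.82, 8.58 and 8.44 after butyrate and 8.60, 8.24, 8.58 and 8.07 after acetate, with overlap. It differed by 0.16 (SE 0.16) on the HFD and 0.38 (SE 0.18) on the LFD. Of 12 stem and progenitor genes, 9 had estimates above 0 (median 0.09, or 0.02 without acetate array 3). Cdca7, a gene of dividing progenitors, differed by 0.30 (SE 0.11, unadjusted p = 0.0092) and overlapped between the groups. Ascl2, a transcription factor of colon stem cells, read 7.61, 7.13, 7.00 and 6.85 against 6.79, 6.64, 6.45 and 6.83. Its groups lay apart, with a difference of 0.47 (SE 0.28), and Lgr5, the stem cell receptor, differed by 0.20 (SE 0.16).

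Genes of the unfolded protein response shared the array pattern of the chaperones. Of 17 tested, 14 had estimates above 0 with a median of 0.13, or 0.07 without butyrate array 2, and none had an unadjusted p under 0.05. Hspa5, the central chaperone of the endoplasmic reticulum, read 11.02, 10.90, 10.35 and 10.36 after butyrate and 10.30, 10.42, 10.40 and 10.37 after acetate. Butyrate arrays 1 and 2 were its highest, and without them its difference went from 0.28 to -0.02. For the whole list 4 of 17 then had estimates above 0, with a median of -0.06.

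Genes of energy metabolism outside fat had small estimates. All 14 glycolysis genes had estimates above 0, with a median of 0.06. The median was 0.04 with 12 of 14 above 0 without acetate array 1, 0.10 without acetate array 3, and 0.02 with 11 of 14 without butyrate arrays 1 and 2. Pfkp, a phosphofructokinase, differed by 0.19 (SE 0.07, unadjusted p = 0.0134), and Pgk1, which makes the first ATP of the pathway, by 0.17 (SE 0.08). Pgk1 ran from 10.42 to 10.72 after butyrate against 10.39 to 10.42 after acetate. The tricarboxylic acid cycle had 16 of 21 above 0 (median 0.03) and respiratory complex I 23 of 35 (median 0.02). Ndufa8 (0.15) and Ndufb8 (-0.16) of complex I each lay apart between the groups, in opposite directions. Complexes III to V had 17 of 33 above 0 and cytosolic ribosomal proteins 36 of 66, with medians of 0.01 for both. Of 17 hypoxia genes 14 were above 0 (median 0.11), a median that was 0.01 without acetate array 2.

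Immune transcripts were uneven between arrays. All 8 MHC class II genes had estimates above 0, with a median of 0.25. Their mean was 7.41, 6.39, 6.34 and 6.69 after butyrate and 6.37, 6.35, 6.18 and 6.78 after acetate, so 1 butyrate array stood above the rest. H2-Eb1, which encodes a chain of these molecules, read 8.49 in that array and 7.12 to 7.63 in the other 7, and differed by 0.33 (SE 0.27). Without butyrate array 1 the count was 5 of 8 and the median 0.07. Macrophage and dendritic cell genes had 9 of 11 above 0 (median 0.15, or 0.01 without butyrate array 1), and their mean was again highest in butyrate array 1, at 6.01 against 5.33 to 5.57 in the other 7.

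C1qa, a complement gene of macrophages, and Cx3cr1, the fractalkine receptor, had unadjusted p of 0.0423 and 0.0424, with differences of 0.30 and 0.31 that were 0.12 and 0.02 without butyrate arrays 1 and 2. B and plasma cell genes had 9 of 11 above 0 (median 0.28), which was 6 of 11 and 0.03 without butyrate array 1. Cd79b, of the B cell receptor, read 7.44, 6.56, 5.39 and 6.56 against 5.63, 5.41, 5.94 and 7.13, with full overlap. The interferon list was balanced, with 12 of 24 above 0 and a median of -0.00, or 4 of 24 and -0.10 without butyrate array 1. In it Cxcl10, a chemokine, was at 0.37 (SE 0.16) and Usp18, which limits interferon signalling, at -0.34 (SE 0.19). Acute inflammation had 9 of 14 above 0 (median 0.04), antimicrobial defence 9 of 19 (-0.01) and T cell genes 5 of 11 (-0.02).

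**Figure D5:**
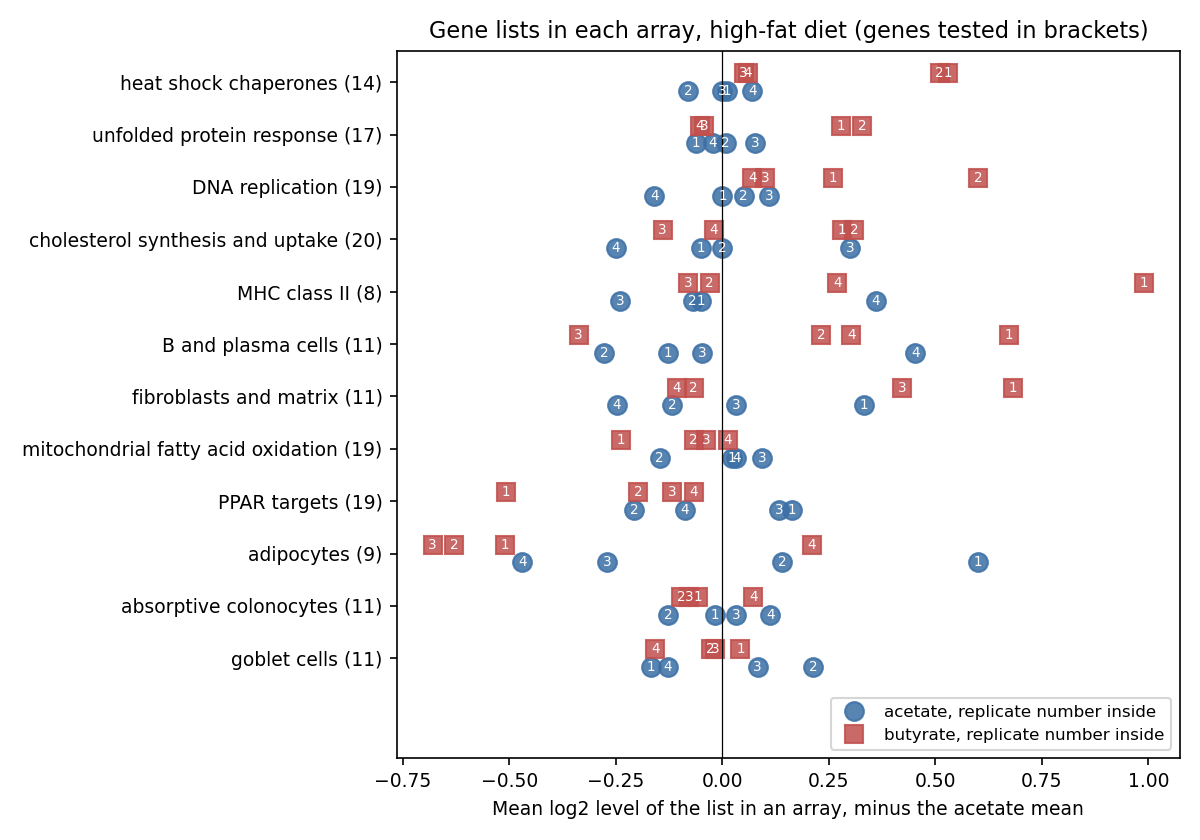
Mean log2 level of the tested genes of 12 lists in each of the 8 arrays, minus the mean of the acetate arrays, with replicate numbers inside the symbols and the genes per list in brackets. Butyrate arrays 1 and 2 stand to the right for heat shock and unfolded protein genes, butyrate array 1 for MHC class II, and the groups overlap for all 12 lists.

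Lists of epithelial function had medians close to 0, while single estimates varied. Absorptive colonocyte genes had 3 of 11 above 0 (median -0.03), with Mep1a, a brush border protease, at -0.17 (SE 0.08) and Car1, a carbonic anhydrase, at -0.05. Of 20 genes of ion and water transport 10 were above 0 (median -0.01). Their estimates ran from -0.36 to 0.50, and 13 of the 20 intervals lay within 0.5 of 0. Clca1, a secreted goblet cell protein, ran from 12.57 to 12.65 after butyrate and 12.69 to 12.74 after acetate, apart by estimate at -0.10 (SE 0.07). Of 15 tight junction genes 7 were above 0 (median -0.00). Of 24 genes of xenobiotic metabolism 4 were above 0 (median -0.09), a median that was -0.00 without butyrate arrays 1 and 2. Gstm1, a glutathione transferase, was at -0.15 (SE 0.09) on the HFD and 0.22 (SE 0.10) on the LFD.

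Among enteroendocrine genes, 5 of 13 were above 0 with a median of -0.07, which was -0.02 without acetate array 3 or 4 and -0.03 without butyrate array 1. Gcg, which encodes the precursor of GLP-1, read 8.58, 8.55, 8.90 and 8.60 after butyrate and 8.68, 9.08, 9.09 and 8.92 after acetate, and differed by -0.28 (SE 0.14). Pyy, made in the same cells, read 10.12, 9.82, 10.03 and 9.87 against 9.90, 9.78, 9.70 and 9.79, and differed by 0.17 (SE 0.10). Both overlapped between the groups, and their estimates pointed in opposite directions. Tuft cell genes had 2 of 9 above 0, or 4 of 9 without butyrate array 1. Their median of -0.04 was -0.14 without acetate array 3 and -0.00 without acetate array 4. The smallest p was that of Alox5, a lipoxygenase (-0.22, SE 0.10).

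Markers of position along the colon and of other layers of the gut wall were uneven as well. Genes of the distal colon had 8 of 9 above 0 (median 0.26, or 0.12 without acetate array 2 and 0.15 with 7 of 9 without butyrate array 1) and genes of the proximal colon 3 of 9 (median -0.08, or 0.03 without butyrate array 1). The mean of the distal list was 7.65, 7.29, 7.42 and 7.02 after butyrate and 7.43, 6.96, 7.16 and 7.06 after acetate, with overlap. All 11 fibroblast and matrix genes had estimates above 0 (median 0.19), with means of 6.76, 6.01, 6.50 and 5.97 against 6.41, 5.96, 6.11 and 5.83. Without butyrate array 1 the count was 8 of 11 and the median 0.07. Col1a2, of type I collagen, differed by 0.40 (SE 0.23). Smooth muscle had 9 of 11 above 0 (median 0.11, or 0.05 without butyrate array 1) and small-intestinal genes 9 of 18 (median -0.00). The part of the piece of colon scraped, or of the depth of scraping, in other values was not tested. Circadian genes had 8 of 15 above 0, immediate early genes 9 of 18, glucocorticoid and aldosterone targets 4 of 13 and endothelial genes 6 of 10, with medians of -0.05 to 0.04.

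The smallest p of all 12795 genes belonged to Mir341, a microRNA gene that was named after its values were seen. The sequences of its mature forms are printed from RefSeq with the seed, bases 2 to 8, in capitals, along with those of Mir666, the other microRNA gene nearby with an unadjusted p under 0.05. No seed is shared among them.
miR-341-5p: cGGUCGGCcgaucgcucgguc
miR-341-3p: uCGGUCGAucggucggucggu
miR-666-5p: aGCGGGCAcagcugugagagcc
miR-666-3p: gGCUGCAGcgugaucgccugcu
Whole transcripts were labelled, so the values do not tell the mature form from its precursor.

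The Mir341 hairpin, of 96 bases, lies at chr12:109611500-109611595 on the plus strand of GRCm38.p6, in an imprinted cluster with the noncoding gene Meg3 and the protein gene Dlk1. It read 6.15, 6.09, 6.36 and 6.32 after butyrate and 6.48, 7.04, 7.00 and 6.37 after acetate. The groups lay apart, with butyrate array 3 next to acetate array 4, and the difference was -0.49 (SE 0.12, unadjusted p = 0.000478, adjusted p = 0.996). On the LFD it differed by -0.06 (SE 0.13). Meg3, like Dlk1 and Mir666 named after its values were seen, was high in acetate arrays 2 and 3, at 7.24 and 7.23 against 5.23 to 6.32 in the other 6, and differed by -0.66 (SE 0.39). Dlk1 differed by -0.39 (SE 0.19) and Mir666 by -0.27 (SE 0.11), both with overlap. Within 250000 bases on either side, 11 genes were tested and all 11 had estimates below 0, with a median of -0.19, and 9 of the 11 lay below 0 on the LFD too. They share a genomic region and may share transcripts, so they are not independent. Over all 113 microRNA genes tested, 70 were below 0 with a median of -0.03, where 57.2% of all genes lay above 0. That lean was not particular to microRNAs. Of 139 long noncoding RNA genes 87 were below 0 (median -0.05), and of 71 transcribed pseudogenes 37 (median -0.03). Of 52 small nucleolar RNA genes 24 were below 0 (median 0.01). At an unadjusted p under 0.05, 7 microRNA genes were lower after butyrate, Mir341 and Mir666 among them, and 0 were higher. Over all genes 1.24% were lower and 2.4% higher at that p, and no microRNA gene was called by limma.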

How the data were processed

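RNA of colon scrapings, 1 array per sample, was hybridised to single-colour whole-transcript arrays. The deposited table holds log2 values made by the authors with RMA, per the submitters' processing notes. RMA removes background, makes the distribution of all arrays alike by quantile normalization and gives 1 value per probe set. For its version and the array's genome build, the sources used here name none. Of 35556 probe sets, 21218 carried 1 gene symbol in the platform annotation, and 1881 carried several and were not named. Of these, 21185 matched the RefSeq gene table (GRCm38.p6). For the 1386 of 18820 genes with several probe sets, the one with the highest mean was taken. Genes with at least 3 of 31 arrays at an intensity of 20 (log2 4.32) were tested, which left 12795. The number of arrays limits the precision.

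A linear model with a mean for each of 8 groups was fitted to all 31 arrays with limma 3.58.1 in R 4.3.3 (lmFit, eBayes with an intensity trend), tested on simulated data, giving 23 residual degrees of freedom. The 2 pairs of acid groups, on the HFD and on the LFD, and the difference between them were each adjusted by Benjamini-Hochberg over all genes, with a threshold of 0.05. A 95% interval is the estimate plus or minus 2.05 SE. Errors pool the spread over the 8 groups. Named genes are the 12 of smallest p in each direction, up to 4 of smallest p per list described, and a panel of genes of acid handling and targets. Unnamed gene models and small RNAs, 1 of which among the higher and 6 among the lower had a p small enough to enter the 12, were counted only. Lists are described by counts and medians and were not tested. The members and lists were chosen with earlier results of these data known. Alternatives covered the filter, the moderation, array weights, the normalization, a replicate block and leaving out arrays.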

Additional observations from a re-analysis of the deposited data

Results flagged for a closer look

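Of 146 groups of 4 arrays (24 genes and 49 lists, after butyrate and after acetate on the HFD), 6 held an array farther from the other 3 than Dixon's 95% critical value allows, and chance gives about 1 in 20. Elac2 was lowest in acetate array 4, at 7.33 against 7.46 to 7.48. Tsc1 was lowest in acetate array 3, at 7.86 against 8.11 to 8.15. Acetate array 2 was lowest for the mean of the tight junction list, at 9.17 against 9.27 to 9.28, and of the hypoxia list, at 8.23 against 8.39 to 8.42, and highest for the gasdermin list, at 8.31 against 8.17 to 8.19. Butyrate array 1 was highest for the interferon list, at 7.00 against 6.60 to 6.62. No gene was called for a difference between the diets by limma (359 at an unadjusted p under 0.05), and none of the probe sets without a gene symbol was called.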

How the results depend on the processing

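No gene was called by limma on the HFD under any of 20 alternatives, on the LFD under any of 18, or for the difference between the diets under any of 26. On the HFD the genes at an unadjusted p under 0.05 numbered 466 as reported and 210 to 680 with each array left out in turn, with 210 without butyrate array 1 and 310 without butyrate array 2. There were 120 without both, an alternative chosen after seeing the data. The smallest adjusted p over these alternatives was 0.247, with all 35556 probe sets tested, also chosen after seeing the data, followed by 0.374 with array weights and 0.445 without acetate array 4. With the replicate number as a block, 0 genes were called on the HFD and 493 had an unadjusted p under 0.05. Deviations of same-numbered arrays from their group means correlated at 0.05, -0.09, -0.11 and 0.23. Arrays of different numbers were not correlated for comparison, so these values do not settle whether the numbers pair the samples. The 24 named genes kept their direction and stayed uncalled in all 469 refits. The refits reuse all or most of the arrays on which these genes were chosen, which favours a kept direction. Of 587 list medians recomputed, 12 moved by more than the spread between replicates, those of heat shock, unfolded protein, hypoxia and deacetylase genes among them. Signal over background limits what can be told of genes near log2 4.32.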
